A study of Macaca mulatta with 6 samples.

Results

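The regions described here are the stretches of autosome that border the longest intervals without a listed CpG, a cytosine followed by a guanine. A gap was defined as 2 neighbouring listed CpGs at least 1 Mb apart, and its members are the listed CpGs up to 1 Mb from either edge. CpGs under 2 Mb from the first or last listed CpG of a chromosome were to be left out, which shortened 0 flanks. There were 10 such gaps on 8 of the 20 autosomes, with 20 flanks. The flanks held 146043 of the 25805743 listed autosomal CpGs, or 0.566%, and 663 of these members lay in the flanks of both gaps of chromosome 20.

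The series measured DNA methylation by bisulfite sequencing in 6 adult female rhesus macaques, in mononuclear cells taken from the blood on a Ficoll gradient. There were 3 animals labelled rank 1 (high) and 3 labelled rank 5 (low). The values per animal stand in 12 columns without names, which could not be tied to animals and were not used, so no methylation level and no comparison of ranks is given. What follows describes positions only, a full count of 1 catalogue with no replicates, and no test was made. Windows of 1 Mb elsewhere on the autosomes, laid end to end and touching no flank and no gap and at least 2 Mb from the ends, served as the comparison (2547 interior windows). Positions are in a genome build not given in the sources used here, so no sequence or gene was assigned to them.

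Long intervals without CpGs are commonly blocks of unknown bases in a genome assembly, many of them at centromeres. The centromeres of primates are built of alpha satellite, a tandem repeat whose units follow each other head to tail over very long distances, so they are hard to assemble. The sequence beside a centromere is known for satellite remnants, recent duplications and few genes. CpGs are mostly lost from mammalian DNA by mutation of methylated cytosine, except in CpG-dense islands, which often mark gene starts.

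The gaps added up to 44.7 Mb and had a median length of 3.91 Mb. Chromosome 3 had a first gap from base 34514396 to 38092614 (3.58 Mb) and a second from 62905464 to 67155052 (4.25 Mb). On chromosome 8 the gap ran from 44885698 to 47885879, on chromosome 9 from 39619059 to 42619755, and on chromosome 10 from 59763012 to 60763081. The gap of chromosome 13 ran from 90365732 to 95741387 (5.38 Mb), that of chromosome 14 from 17351775 to 21743759 (4.39 Mb) and that of chromosome 19 from 23905248 to 32364256 (8.46 Mb). Chromosome 20 had a first gap from 31151221 to 32607149 (1.46 Mb) and a second, the longest of the 10, from 34254549 to 44407539 (10.2 Mb). The shortest gap, on chromosome 10, measured 1000070 bases, and the longest interval that missed the limit of 1 Mb measured 771139 bases.

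The lengths of 3 gaps were close to a whole number of megabases. The gap of chromosome 8 was 182 bases longer than 3 Mb, that of chromosome 9 was 697 bases longer than 3 Mb, and that of chromosome 10 was 70 bases longer than 1 Mb. The other 7 gaps exceeded a whole number of megabases by 152991 to 578219 bases. Round block lengths are a usual placeholder in assemblies for gaps of unknown size. Whether these gaps are such blocks was not tested. The middle of a gap lay between 14.7% (chromosome 14) and 67.4% (chromosome 13) of the way along its chromosome.

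Most flanks held fewer listed CpGs than other windows of their chromosome. The 20 flanks had 0.186 to 20.2 listed CpGs per kb, with a median of 8.18, and the median of their ratios to the interior median of their own chromosome was 0.694. The ratio was under 1 in 13 flanks and over 1 in 7, while 49.9% of interior windows were under 1. Flanks at 20% or more below the chromosome's interior median, called CpG-poor, numbered 13 of 20, against 22.1% of interior windows. Flanks at 25% or more above it, called CpG-rich, numbered 3 of 20, against 26.2% of interior windows. A ratio of 0.5 or less was found in 8 flanks and in 0.510% of interior windows. The choice of reference moved these ratios: against the median of all autosomal interior windows, 8.47 per kb, the median flank stood at 0.967.

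**Figure D1:**
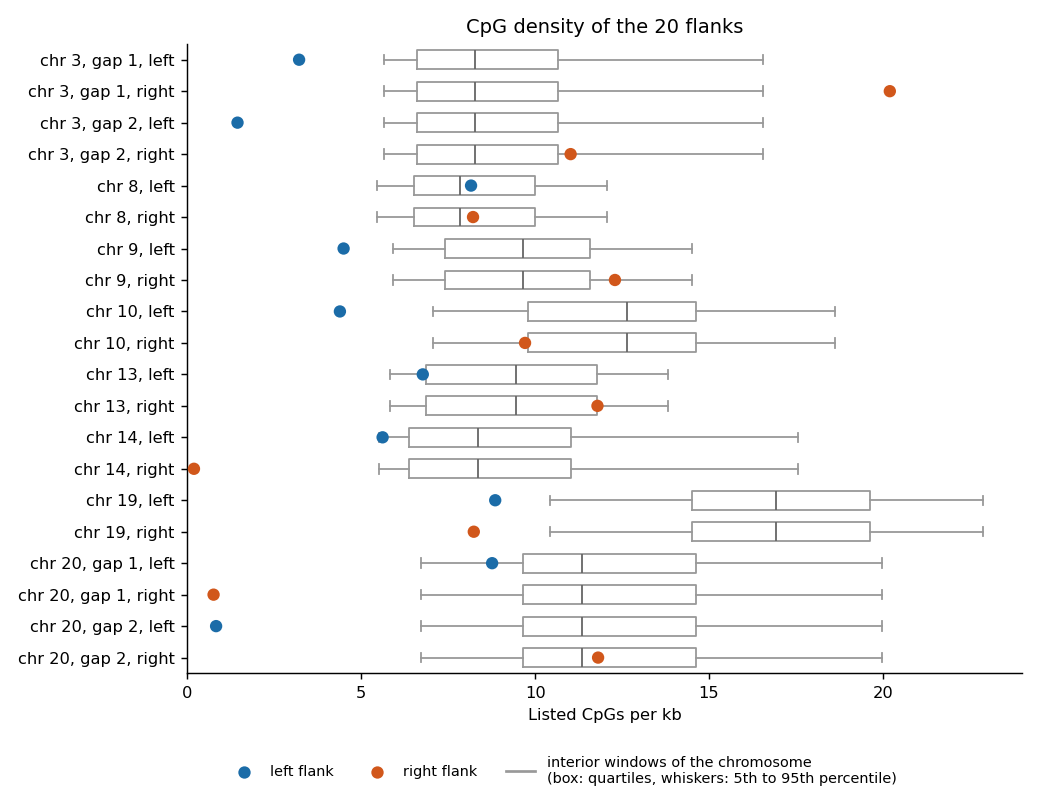
Listed CpGs per kb in each of the 20 flanks (points, blue for the left and orange for the right side of the gap) beside the interior windows of the same chromosome (boxes: quartiles, whiskers: 5th to 95th percentile). The right flank of the first gap on chromosome 3 stands highest, at 20.2 per kb, and the right flank of chromosome 14 lowest, at 0.186.

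The 5 sparsest flanks, by the ratio to the interior median of their chromosome, lay on chromosomes 14, 20, 3 and 10. Right of the gap on chromosome 14 the flank held 186 listed CpGs in 1 Mb, 0.0223 times its chromosome's interior median. On chromosome 20 the right flank of the first gap held 750 (0.0662 times) and the left flank of the second gap held 823 (0.0726 times). These 2 flanks overlap over 353 kb, which holds the 663 CpGs they share. The left flank of the second gap of chromosome 3 held 1439 (0.174 times), and the left flank of chromosome 10 held 4384 (0.347 times). Each of the 5 lay below every interior window of its own chromosome.

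The densest flank was the right side of the first gap of chromosome 3. It held 20201 listed CpGs, 2.45 times the interior median of chromosome 3 (8.26 per kb), and only 3 of the 177 interior windows of that chromosome were denser. Its opposite flank held 3210, or 0.389 times the median, below all 177 windows. Also called rich were the right flank of the second gap of chromosome 3 (11020 CpGs, 1.33 times) and that of chromosome 9 (12295, 1.27 times). The right flank of chromosome 13 (11792, 1.249 times) fell just short of the limit, and the right flank of chromosome 8 (8213, 1.05 times) was the fifth in order.

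The 2 sides of a gap often differed in density, and at several gaps by far more than most pairs of interior windows. In 8 of the 10 gaps the denser flank had at least 25% more CpGs per kb than the sparser one, against 51.7% of pairs of interior windows 2 to 11 Mb apart on a chromosome. The median ratio of the denser to the sparser was 4.52 for the gaps and 1.26 for the pairs of windows. The right side, in table coordinates, was the denser in 7. The contrast was widest on chromosome 14, where the left flank had 5.61 CpGs per kb and the right 0.186. It was 14.3-fold at the second gap of chromosome 20 (0.823 and 11.8 per kb), 11.7-fold at the first (8.76 and 0.750) and 7.66-fold at the second gap of chromosome 3 (1.44 and 11.02). Both contrasts of chromosome 20 draw on sparse flanks that overlap. Counted per 1 kb tile with a listed CpG, which sets empty stretches aside, these contrasts were much smaller. They were 1.28-fold on chromosome 14, 1.77-fold and 1.47-fold at the second and first gap of chromosome 20, and 1.31-fold at the second of chromosome 3. By this count 8 of the 10 gaps differed by at least 25%, but the share of pairs of interior windows was not computed for it. The flanks of chromosome 8, at 8.16 and 8.21 per kb, and those of chromosome 19, at 8.85 and 8.23, were nearly equal in CpGs per kb. Per tile with a listed CpG the left and right flanks stood at 12.9 and 10.3 on chromosome 8. On chromosome 19 they stood at 11.4 and 8.62. The chromosome 19 pair, though alike per kb, stood at 0.523 and 0.486 times the interior median of that CpG-rich chromosome, 16.9 per kb.

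Smaller empty intervals were frequent inside the flanks. Intervals of at least 20 kb without a listed CpG covered 33.5% of the flank length and 1.47% of the interior windows. They covered at least 20% of the bases in 12 of the 20 flanks, against 0.982% of interior windows. There were 43 distinct intervals of this kind reaching into a flank, of which 25 were at least 100 kb long. The longest, in full length, were 711163 bases on chromosome 20, 517827 bases before the second gap of chromosome 3, 503493 bases before the gap of chromosome 10 and 436164 bases before the first gap of chromosome 3. In the right flank of chromosome 14 such intervals covered 96.1% of the bases, and in the overlapping flanks of chromosome 20 they covered 88.7% and 86.0%. No interval of this length lay in the right flank of the second gap of chromosome 3 or of the second gap of chromosome 20.

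Between empty intervals of at least 100 kb, gaps included, stood islands of listed CpGs, from 178 to 607328 bases long. Some of the shorter ones are given here. On chromosome 14, right of the gap, the islands measured 23672, 12679, 1113 and 1222 bases and held 144, 29, 6 and 7 CpGs. On chromosome 10 a single island of 4937 bases with 69 CpGs stood between an empty interval of 503493 bases and the gap. On chromosome 20 the left edge of the second gap was an island of 235 bases with 3 CpGs, from base 34254314 to 34254548, with 207232 empty bases before it.

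Counted only over 1 kb tiles with a listed CpG, which sets the empty intervals aside, the flanks were nearer to the interior windows. The ratio to the chromosome's interior median then ran from 0.446 to 3.19 with a median of 0.9003, and was still under 1 in 13 flanks. No interior share was computed for this last count. By the same limits 8 flanks were poor and 6 were rich, beside 21.7% and 26.1% of interior windows. Over all flanks there were 11.7 listed CpGs per tile with a CpG, against 9.77 in the interior windows. Tiles with 10 to 19 CpGs made up 35.2% of such tiles in the flanks and 26.7% in the interior, and tiles with 1 to 4 CpGs made up 18.0% and 25.4%.

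CpG density, pooled over all flanks, was higher far from the gap than near it. Pooled over the 20 flanks it was 6.34 per kb in the first 100 kb, 5.52 in the second, and 10.05 in the last 100 kb of the flank. The pooled value includes the dense right flank of the first gap of chromosome 3, which reached 32.5 per kb. The median ratio to the chromosome's interior median was 0.615 in the first 100 kb, 0.329 in the second, between 0.519 and 0.719 from 200 to 900 kb, and 0.891 in the last. Between 100 and 200 kb from the edge, 7 of the 20 flanks had no listed CpG, and between 900 and 1000 kb, 3 had none. The first 10 kb, which holds the edge CpG by construction, had 9.67 per kb, and the stretch from 20 to 30 kb had 5.45. Single flanks went against the pooled course: next to the first gap of chromosome 20 the left flank had 1434, 1453 and 1404 CpGs in its first 3 bins of 100 kb and 254 in the fifth.

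**Figure D2:**
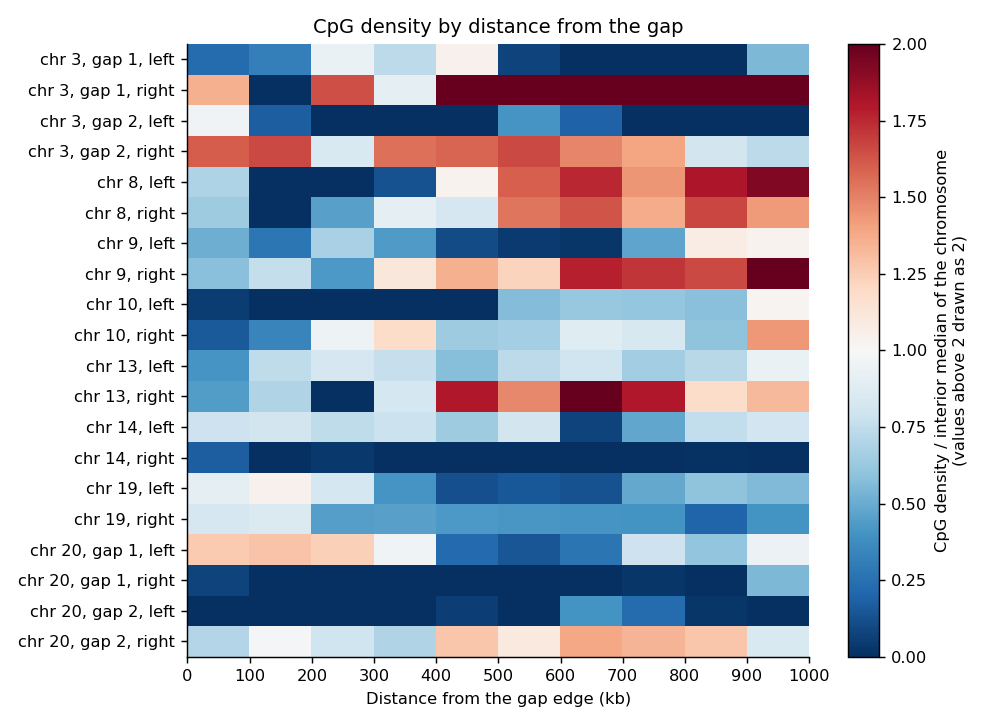
CpG density in bins of 100 kb from the gap edge (x axis, kb) for each of the 20 flanks, as the ratio to the interior median of the chromosome (colour, values above 2 drawn as 2). Blue bins lie below the interior median and red bins above it, and the darkest blue bins hold few or no listed CpGs. The right flank of the first gap of chromosome 3 is above 2 from 400 kb outward.

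CpG-dense tiles, those of 1 kb with 40 or more CpGs, were concentrated in a few flanks. The flanks held 263 of them (262 distinct, since 1 lies in both overlapping flanks of chromosome 20), 13.2 per Mb, against 12.04 per Mb in interior windows, and 44.5% of the 263 lay in the right flank of the first gap of chromosome 3. That flank had 117 dense tiles, followed by the right flanks of chromosome 13 (35), chromosome 9 (32), the second gap of chromosome 20 (23) and chromosome 10 (21). The median flank had 1.5 dense tiles and the median interior window 7. No dense tile was listed in 6 of the 20 flanks (30%), and none in 9.23% of interior windows. Without chromosome 3 the other 16 flanks had 9.06 dense tiles per Mb, below the interior value. The higher pooled density per Mb therefore rests on that chromosome. The length counted includes stretches without a listed CpG. Of the tiles with a listed CpG, 2.097% were dense in the flanks and 1.253% in interior windows. That share was not computed without chromosome 3, so whether it also rests on that chromosome is not shown.

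Runs of 40 or more CpGs with no spacing over 50 bases, the kind of cluster that CpG islands form, were fewer per Mb in the flanks. There were 92 runs, 4.60 per Mb, against 6.46 per Mb in interior windows. This order turned round with spacings up to 100 bases (13 against 11.03 per Mb) and with flanks of 2 Mb (6.85 against 6.44 per Mb). The length counted includes empty stretches: 37.3% of the 1 kb tiles in flanks and 3.94% in interior windows held no listed CpG. Runs per tile with a listed CpG were not computed, so a lack of runs where CpGs are listed is not shown. No run was found in 11 of 20 flanks (55.0%), and none in 14.5% of interior windows. Of the 92, 28 lay right of the first gap of chromosome 3. With 247 CpGs in 1702 bases, a run between bases 45355052 and 45356753 of chromosome 20 was the largest, 948 kb from the second gap. The next, on chromosome 10 from 61757097 to 61759253, held 245 CpGs and lay 994 kb from its gap. The densest tile, from 45355001 to 45356000 on chromosome 20, overlapped the first of these and held 134 CpGs. Both largest runs were near the outer limit of their flanks, and within 0.5 Mb of a gap there were 2.10 per Mb.

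The distances between CpGs showed a tandem repeat in some flanks. In a tandem array a CpG recurs at the same place in each unit, so pairs of CpGs pile up at the unit length and its multiples. Pairs of listed CpGs 169 to 173 bases apart, a window centred on the textbook length of an alpha satellite unit, were counted against the median of distances 5 to 30 bases away. A region was called periodic if it held at least 100 such pairs and exceeded that level by 25% or more. There were 4 periodic flanks of 20, against 0.314% of interior windows, 8 of 2547. The interior windows had a median ratio of 0.965, with 0.891 and 1.03 as their 5th and 95th percentiles.

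The 4 periodic flanks lay at 3 gaps. On chromosome 8 both sides were periodic: the left flank had 1035 pairs where neighbouring distances gave 655, a ratio of 1.58, and the right had 909 against 522.5, a ratio of 1.74. Right of the second gap of chromosome 3 there were 1252 pairs against 727.5, a ratio of 1.72. Right of the gap of chromosome 19 there were 645 pairs against 430, a ratio of 1.5. These counts are pairs within 1 genome sequence and share CpGs, so they are no independent observations.

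The peak was narrow and sat at 172 bases. Pooled over the periodic flanks, 1431 pairs were exactly 172 bases apart, 3.06 times the neighbouring distances. The ratio was 1.02 in the other 16 flanks and 0.956 in the interior windows. The call that set the periodic flanks apart used distances that include 172 bases, so this contrast is in part a result of the call. Further peaks stood near the multiples, at 343 bases (1.65 times), 515 bases (1.72 times), 687 bases (1.45 times) and 857 bases (1.39 times), which the call did not use. Each is the most over-represented distance within 8 bases of the multiple. A line through these 5 distances and through 0 gave a unit of 171.6 bases. Since the search stayed within 8 bases of each multiple, this value was bound to lie near the length searched. Near these later multiples the strongest distance stood at 1.04 to 1.09 times in the other flanks and at 1.007 to 1.01 times in the interior windows. Within the unit, CpGs also recurred at 85 bases (2.01 times, against 0.940 in the interior) and 87 bases (1.68 times, against 1.07), distances that add up to 172. The same held at 105 bases (1.66 times) and its complement 67 (1.45 times), but not at 101 bases (1.65 times), whose complement 71 stood at 0.959 times. Distances outside these pairs stood as high, such as 157 bases (1.73 times), 152 bases (1.67 times) and 56 bases (2.03 times, against 1.52 in the interior).

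**Figure D3:**
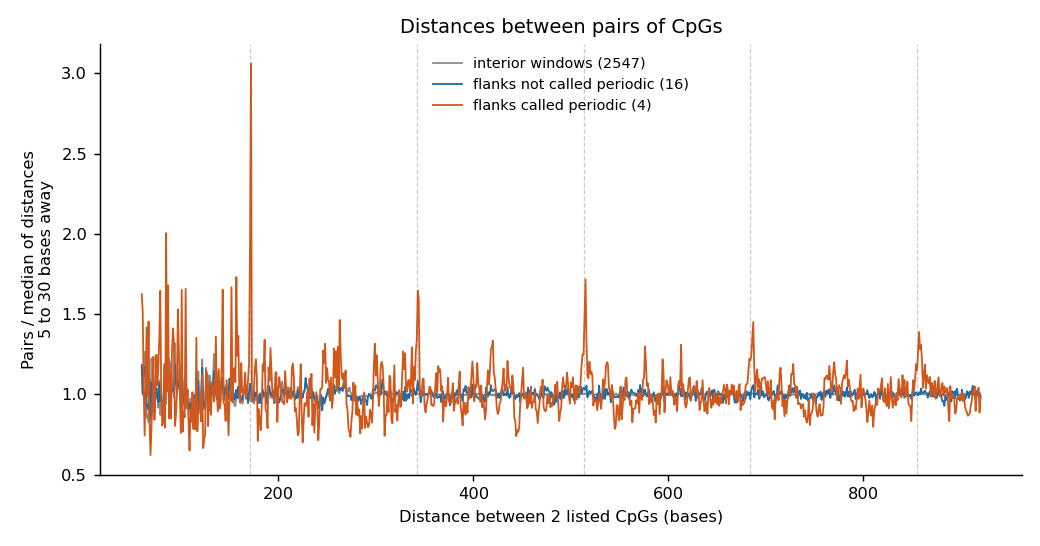
Number of pairs of listed CpGs at each distance (x axis, bases) divided by the median of distances 5 to 30 bases away, for the 4 periodic flanks (orange), the other 16 flanks (blue) and the 2547 interior windows (grey). Dashed lines mark multiples of the unit length searched. The periodic flanks peak at 172 bases, at 3.06, and again near each multiple.

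The distance of 172 bases was picked as the strongest of all flanks pooled, and the periodic call used distances that include it. A contrast with interior windows at this distance is therefore partly built in, and no conclusion is drawn from it. Of all distances from 100 to 300 bases, 172 was the most over-represented in 6 flanks, against 0.589% of interior windows. Beside the 4 periodic flanks these were the left flank of chromosome 19, with 209 pairs at 172 bases (1.54 times), and the left flank of the first gap of chromosome 20, with 246 (1.74 times). Both had a ratio of 1.18 over the whole flank in the wider window of distances, short of the limit. In both, the excess lay next to the gap. The last island before the gap of chromosome 19, from base 23477468 to 23905247, held 549 pairs, 1.31 times the neighbouring distances. That before the first gap of chromosome 20, from 30708744 to 31151220, held 528, 1.27 times. An empty interval of 101857 bases bounded the former on its outer side and one of 124361 bases the latter.

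The pairs above the neighbouring level were placed differently from gap to gap. Right of the second gap of chromosome 3 an excess was present in all 10 bins of 100 kb, with 73.5 pairs above the neighbouring level in the first bin and 81 in the fourth. On chromosome 8 it was low near the gap and higher further out, with 10 and 7 excess pairs in the first 100 kb of the left and right flanks and 80 and 59 in the last 100 kb. On both sides of chromosome 8 the bin from 100 to 200 kb held no listed CpG. On chromosome 19 the second bin had the most excess pairs on either side, 50 and 54. Such counts also depend on how many CpGs a bin holds, and ratios to the neighbouring level gave another order. Right of the gap of chromosome 19 the second bin had 1446 CpGs and a ratio of 1.54. The bin from 800 to 900 kb had 338 CpGs and a ratio of 2.8, from 14 pairs. Right of the gap of chromosome 8 the highest ratio, 2.55, was in the bin from 200 to 300 kb, with 356 CpGs.

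**Figure D4:**
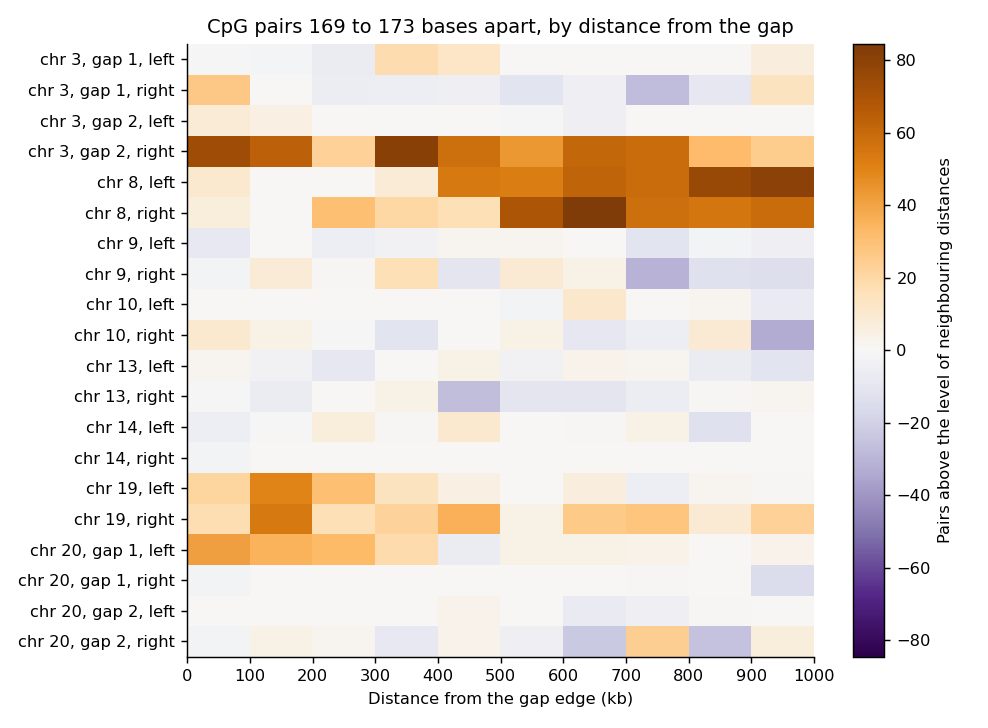
Pairs of listed CpGs 169 to 173 bases apart, as the number above the level of neighbouring distances (colour), in bins of 100 kb from the gap edge (x axis, kb) for each flank. The excess fills every bin right of the second gap of chromosome 3, lies mostly in the outer bins on both sides of chromosome 8, and is within 400 kb on the left of the first gap of chromosome 20.

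In the remaining flanks the excess was absent, weak or based on few pairs. The flanks of chromosomes 9, 10 and 13, the left flank of chromosome 14, the right flank of the first gap of chromosome 3 and the right flank of the second gap of chromosome 20 had 275 to 3655 pairs and ratios of 0.893 to 1.01. Too few pairs for a call, 3 to 48, were listed in the right flank of chromosome 14 and in the 2 flanks that overlap on chromosome 20. Both left flanks of chromosome 3 missed the limit but had an excess at 172 bases and at the multiples. Left of the first gap there were 205 pairs and a ratio of 1.21, with 71 pairs at exactly 172 bases (2.06 times) and ratios of 2.21 and 1.41 at double and triple the unit length. Left of the second gap there were 100 pairs and a ratio of 1.03, with 30 pairs at 172 bases (1.58 times) and ratios of 1.46 and 1.52. These counts are small, and in neither flank was 172 the strongest distance.

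Dense tiles and runs were few in the periodic flanks. They held 35624 listed CpGs, 2 dense tiles and 0 runs, while the 16 other flanks held 111082 CpGs, 261 dense tiles and 92 runs. Without the right flank of the first gap of chromosome 3 the others held 144 dense tiles and 64 runs, and 7 of the 16 had 0 runs. Periodic flanks were not CpG-poor as a group: by density they stood at 1.04, 1.05 and 1.33 times the interior median on chromosomes 8 and 3, and at 0.486 on chromosome 19. The call needed at least 100 pairs, which the 3 sparsest flanks did not hold, so this is in part a result of the call. The median spacing between neighbouring CpGs was 45 to 74 bases in the periodic flanks, within the range of 19 to 96 bases over all flanks.

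The 8 interior windows called periodic lay on 6 chromosomes. Only 1 was within 3 Mb of a gap, on chromosome 13 from base 87000019 to 88000018, 2.37 Mb from the gap, with 1375 pairs and a ratio of 1.49. Chromosome 14, whose gap had no periodic flank, had 2 such windows, between 66000041 and 68000040, 44.3 Mb from its gap. The highest ratio, 2.05, was on chromosome 6, which had no gap of 1 Mb. On chromosomes 6 and 7, 3 of the windows touched an empty interval of at least 100 kb. Of the 8, 5 lay on chromosomes without a gap, and 12 of the 20 autosomes had no gap. All 8 had 172 bases as their strongest distance, which lies among the distances that the call used.

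A pair of spacing orders that recur across the table was also counted, with their reverses: 4, 5, 38, 2 and 4 bases, and 24, 20, 4, 8 and 4 bases. Both were rarer in the flanks. They were chosen from earlier results of these data. The first occurred 106 times, 5.30 per Mb against 10.5 per Mb in interior windows, and the second 50 times, 2.50 against 5.96 per Mb. Per 1000 listed CpGs the first stood at 0.723 against 1.12 and the second at 0.341 against 0.634. In the periodic flanks they numbered 8 and 6, or 0.225 and 0.168 per 1000 CpGs, and in the other flanks 98 and 44, or 0.882 and 0.396.

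Long stretches with the same spacings elsewhere mark near-identical copies of DNA, as in duplicated segments and long repeats. A CpG was counted as shared if it lay in a word of 20 consecutive spacings, spanning at least 1 kb, that occurred in the same or reverse order at another place on the autosomes or the X chromosome. In the flanks 532 CpGs were shared, 0.363%, against 0.0534% in interior windows. They lay in 6 of 20 flanks, while 10.99% of interior windows had any. In 0 flanks were 5% or more of the CpGs shared, against 0.0393% of interior windows, 1 of 2547. Copies that differ by a single gained or lost CpG are missed by this count.

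The left flank of chromosome 8 had the most shared CpGs, 310 or 3.80%, and 1 interior window had a higher share. Of its 82 distinct words, 74 occurred again inside the flank, all in the same order and all at 1 distance, 13819 bases, which is the pattern of a direct repeat. Words of this flank also stood at 81 places on 16 other chromosomes. The left flank of the first gap of chromosome 3 followed, at 1.34%. It had 22 words between bases 34492813 and 34496417 that all recurred on chromosome 17 between 145974 and 149578, in reverse order, 146 kb from the first listed CpG of that chromosome.

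The right flanks of chromosomes 13 and 9 held copies within themselves. On chromosome 13, 18 words recurred 7296 bases away in the same order, between bases 96509740 and 96522654, and 0.645% of the flank's CpGs were shared. On chromosome 9, 10 words recurred 4622 bases away in the same order, between 42788717 and 42796932, with 0.488% shared. The right flank of chromosome 19 had a share of 0.255%, from 1 word that also stood on chromosome 11. The left flank of the first gap of chromosome 20 had 0.251%. Words of one flank occurred at 0 places in other flanks.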

How the data were processed

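Bisulfite reads came from blood cells of 6 macaques. Bismark, an aligner and methylation caller for such reads, is named by the submitters' processing notes, with version, build and site filters not given in the sources used here. Deposited by the authors was 1 table without a header, and its first 3 columns give the chromosome, start and end of 26958235 CpGs. It was split at white space, and the end was taken as the 1-based position. The 12 further columns carry no names and were not used; depth per animal is therefore not reported.

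Gaps, flanks, interior windows, tiles, runs, pair distances and recurring words were computed with Python 3.11.15, numpy 2.4.6 and pandas 2.3.3 as defined in the report. The code was tested on simulated positions with 6 planted values, of which 6 were recovered. The regions, limits and spacing orders were chosen with earlier results of these data known. The rule for naming regions took all gaps, the 5 densest, 5 sparsest and 5 most shared flanks, the largest run and the densest tile. The islands, the lengths near whole megabases, the distance of 172 bases, its complements, the pairs of interior windows and the comparison of periodic with other flanks were chosen after seeing the values. No test was made.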

Additional observations from a re-analysis of the deposited data

How the results depend on the processing

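Each value below was recomputed with 1 choice changed (tile length and its CpG minimum together); the cause of a shift was not tested unless stated. CpG-poor flanks were 65% of the flanks, and 40% both with flanks of 2 Mb and per tile with a listed CpG; CpG-rich flanks were 15%, and 30% per tile, 25% against all autosomes and 6.25% without chromosome 3, which has 2 of the 3. The median density ratio ran from 0.597 to 0.967 over all its alternatives and stayed under 1. Dense tiles per Mb were 1.09 times those of interior windows, and 0.942 times for 500 base tiles holding at least 20 CpGs, 0.521 and 1.52 times with flanks of 0.5 and 2 Mb, and 0.753 times without chromosome 3, so no direction is given for them. Runs per Mb stood at 0.712 times, and at 1.18 times with spacings up to 100 bases, 0.325 times with flanks of 0.5 Mb and 1.06 times with 2 Mb. Periodic flanks were 20% of the flanks, and 10% in the first 100 kb from the gap. They were 35% in the first 500 kb and 10.8% with a gap minimum of 0.5 Mb, which gave 37 flanks, 4 of them periodic. For the stretches of 100 and 500 kb the minimum of 100 pairs was kept although they hold fewer CpGs. No interior share was computed for these stretches. The first spacing order stood at 0.504 times the interior per Mb and 0.646 times per 1000 CpGs. Shared CpGs were 0.363% of flank CpGs, and 0.241% and 0.176% with flanks of 0.5 and 2 Mb, 0.172% with 12 spacings, 0.257% with 30, 0.0927% over at least 2 kb, and 0.170% without chromosome 8. The interior share was 0.0191% to 0.0541% in the alternatives where it was computed. Alternatives for the periodic call other than the first 100 kb and those without chromosome 3 (dense tiles and runs) or 8 (shared CpGs) were chosen after seeing the data. No paired analysis was possible because the value columns carry no sample names. Depth could not be weighed, and whether a position without a listed CpG lacks a CpG or lacks sequence or coverage was not tested.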
